A study of Mus musculus with 12 samples.

Results

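The 82 genes described here are those whose RNA was lower after estradiol in wild-type (WT) G1E-ER-GATA-1 cells, was higher in Alas2 cis-element double-mutant cells given the same estradiol, and stayed higher when 5-aminolevulinic acid (5-ALA) was added. They were chosen by measured values, from 25097 genes, on log2 of the group mean plus 0.5 counts per 1000000 of the library total (CPM). A member had a mean of at least 5 CPM in mutant cells with estradiol, a difference of -1 or less between WT cells with and without estradiol, and a difference of 1 or more between mutant and WT cells with estradiol. Its fall with 5-ALA was under 20% of that excess. Genes named Rpl or Rps and a digit, the usual symbols of cytosolic ribosomal proteins, and 5 named genes were left out. This removed Il9r, Pck2, Psat1, Rpl10a and Rpl39. The mean-level threshold was met by 8160 genes, the fall in WT cells also by 2719, and the excess in mutant cells also by 312, of which 287 were not on the list of exclusions. The members make up 28.6% of these 287, and the other 205 lost 20% or more of their excess with 5-ALA.

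Every library came from mouse G1E-ER-GATA-1 cells, an erythroid progenitor line that lacks its own GATA-1 and carries a fusion of GATA-1 with an estrogen receptor domain that holds it inactive until estradiol is added. All were grown with erythropoietin, Kit ligand and puromycin. Cells given estradiol are called induced below. The groups were double-mutant cells given 1 uM beta-estradiol and 1 mM 5-ALA for 48 h, double-mutant cells given 1 uM beta-estradiol for 48 h, WT cells given 1 uM beta-estradiol for 48 h, and untreated WT cells, with 3 libraries each and 20309085 to 43548387 expected counts per library. Mutant cells without estradiol and WT cells with 5-ALA were not analysed here, so the levels of mutant cells before induction are not known. The labels do not say how many mutant clones were used or whether the 3 libraries of a group came from separate cultures, and the spread between them may be technical. Alas2 RNA, the readout of the mutation, averaged 7.73 ± 2.23 CPM in induced mutant cells and 3903 ± 12.5 CPM in induced WT cells (SD, n = 3 each), against 5.91 ± 0.975 CPM in untreated WT cells.

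In these cells estradiol releases the fusion protein to act in the nucleus, where GATA-1 turns on genes of the red cell programme and turns off genes of the progenitor state, including Gata2. Alas2 encodes the enzyme that makes 5-ALA, the committed precursor of heme, in erythroid cells, and its GATA-binding elements are needed for its induction. Added 5-ALA enters the pathway after that enzyme and so restores the substrate for heme without restoring Alas2. Gata2 averaged 28.3 ± 0.549 CPM in induced mutant cells and 54.4 ± 0.719 CPM in induced WT cells, against 557 ± 19.5 CPM in untreated WT cells, so this known target of repression was low in both estradiol-treated genotypes (n = 3 each).

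Several members encode enzymes of amino acid supply, and the promoters of 8 members hold the letters TGATGNAA on either strand, the composite element that the transcription factor ATF4 and its C/EBP partners bind in stress-response genes. Promoters are RefSeq windows of build GRCm38.p6, from 250 bases before to 50 bases after a gene's start, and 66 of the 82 members were matched by symbol. The 8 members are 12.1% of those matched, against 2.83% of 9187 genes tested for expression, 4.51% of all 27025 genes with a window, and 2 of 164 matched genes (1.22%) among the 205 that fell further with 5-ALA. Members have more windows per gene, and counted by window the letters were in 7.62% of the 105 windows of members and 3.97% of all windows. The stretches below are shown because they carry these letters near the starts of Asns and Trib3, which are textbook ATF4 targets, 2 copies in Chchd10, and a copy in Ctsl, the member with the largest excess. They read 5′ to 3′ on the gene's strand, and capitals mark TGATGNAA or its reverse complement.
Asns, chr6:7693184-7693292, minus strand: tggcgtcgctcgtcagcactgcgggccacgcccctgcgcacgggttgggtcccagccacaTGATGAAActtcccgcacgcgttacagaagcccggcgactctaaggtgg
Trib3, chr2:152344035-152344106, minus strand: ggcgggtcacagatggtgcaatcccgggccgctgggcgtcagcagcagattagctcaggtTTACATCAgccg
Chchd10, chr10:75932985-75933125, plus strand: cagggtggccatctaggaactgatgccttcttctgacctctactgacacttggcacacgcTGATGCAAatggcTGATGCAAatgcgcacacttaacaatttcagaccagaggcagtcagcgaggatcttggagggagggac
Ctsl, chr13:64370606-64370733, minus strand: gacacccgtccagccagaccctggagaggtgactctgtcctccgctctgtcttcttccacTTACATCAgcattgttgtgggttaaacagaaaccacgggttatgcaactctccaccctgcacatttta
The remaining members with these letters are Arl14ep, Lancl1, Pacsin2 and Tmem268. A match describes letters in a window and is not evidence that a factor binds there.

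The other motifs searched on both strands were closer to their background among tested genes. The GATA letters AGATAA were in windows of 6 members (9.09% against 8.15%) and TGATAA in windows of 7 (10.6% against 5.66%). Counted by window, the comparison was with windows of all genes and not of tested genes alone. There AGATAA was in 5.71% of members' windows and 11.2% of all windows, and TGATAA in 6.67% and 9.05%. Counted by gene over all 27025 genes with a window, the letters were in 12.7% and 10.4%, above their shares of tested genes. CACGTG, the E-box of MYC and TFE proteins, was in windows of 10 members (15.2% against 11.6%), Lonp1 and Ctsl among them. TGACTCA, the AP-1 element, was in windows of 7 (10.6% against 4.30%), and the ETS letters CCGGAAG in windows of 10 (15.2% against 21.5%). CCAAT was in 37.9% against 44.4%, and GGGCGG in 74.2% against 66.6%.

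As a set, the members had a median difference of -2.11 (log2) between WT cells with and without estradiol, and of 1.35 between induced mutant and WT cells. Over the 12115 genes tested for expression the same medians were -0.33 and 0.12. After TMM scaling the members' medians were -1.79 and 1.21, with -0.03 and -0.01 over all genes tested, and every member kept both directions. These contrasts chose the members, and their sizes are given as a description. The background of significant calls was wide: with edgeR's quasi-likelihood test and Benjamini-Hochberg adjustment, 43.3% of tested genes rose and 46.4% fell with estradiol in WT cells. Between induced mutant and WT cells, 35.1% were higher and 33.6% lower in the mutant. With 5-ALA in mutant cells 21.6% of tested genes rose and 21% fell. All 82 members were among the genes tested. In bulk RNA, fewer cells of a kind and less RNA per cell cannot be told apart.

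**Figure D1:**
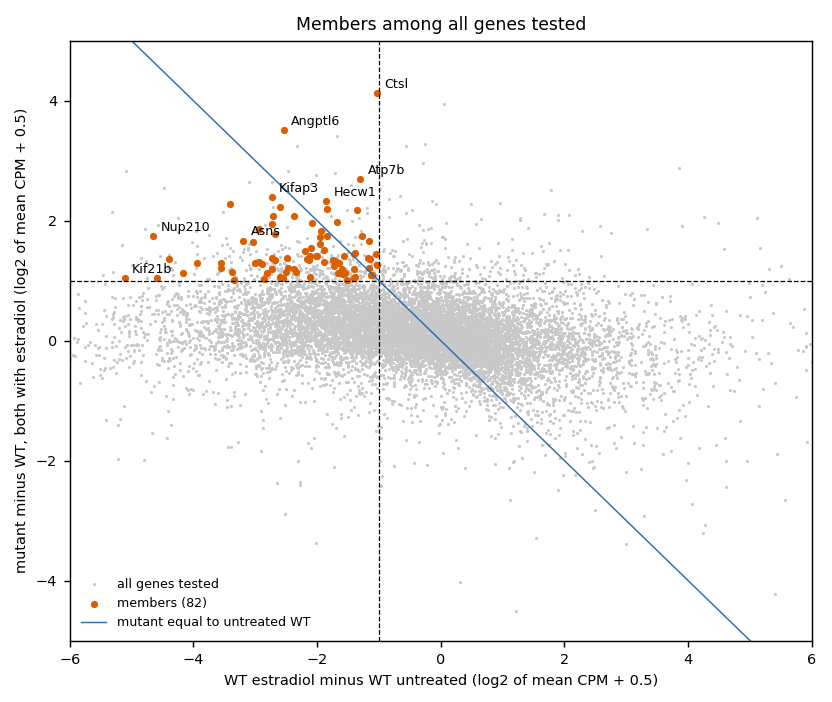
Each point is a gene, with the difference between estradiol and untreated WT cells on the x axis and the difference between induced mutant and WT cells on the y axis (both log2 of mean CPM plus 0.5). Dashed lines mark the thresholds at -1 and 1, the 82 members are orange, 65 genes lie outside the axes, and members left of the blue line were lower in induced mutant cells than in untreated WT cells.

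Most members lay between the 2 WT groups. The mean in induced mutant cells was below that of untreated WT cells for 66 members and above it for 16, and scaling by TMM or by DESeq2 size factors gave 60 below and 22 above. It was lower by 2-fold or more for 30 members, within 2-fold for 50, and higher by 2-fold or more for 2, Atp7b and Ctsl. The 3 mutant libraries lay below all 3 untreated WT libraries for 63 members, above them for 13, and overlapped them for 6. Of all genes tested, 50.4% lay below in this way and 37.6% above. The name "kept high" therefore describes the level against estradiol-treated WT cells, since the median difference from untreated WT cells was -0.55 (log2), with -0.18 over all genes tested. Scaling by TMM moved the all-gene median to -0.02 and the members' median to -0.36.

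**Figure D2:**
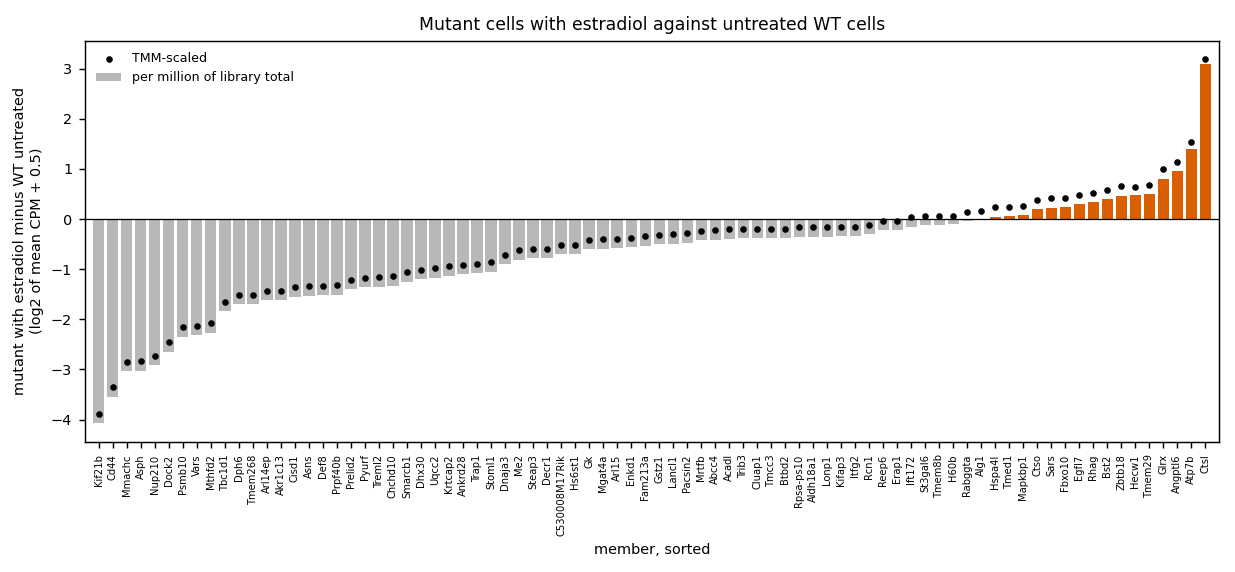
Bars give, for 80 of the 82 members on the x axis, induced mutant cells minus untreated WT cells (log2 of mean CPM plus 0.5, scaled to the library total), and black points give the same after TMM scaling. Orange bars are the 16 members above untreated WT cells, from Ctsl at 3.10 downwards, and Kif21b is lowest at -4.08.

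The largest excess in mutant cells belonged to Ctsl, which encodes the lysosomal protease cathepsin L. Ctsl had 8.87, 7.93 and 7.59 CPM in induced mutant cells with 5-ALA, 10.5, 9.35 and 9.26 CPM in mutant cells without it, 0.0591, 0.0311 and 0.164 CPM in induced WT cells, and 0.662, 0.575 and 0.844 CPM in untreated WT cells. It was near the limit of detection in WT cells and far above both WT groups in all 6 mutant libraries. The mutant libraries held 922 reads in all and the induced WT libraries 7, a ratio of 124 with an exact 95% interval of 59.7 to 308 that covers counting error only. The same contrast chose Ctsl and ranked it first, so ratio and interval are a description and not a test. The place of Ctsl in the set rests on its fall in WT cells, which was 64 reads in untreated WT libraries and 7 with estradiol, and its log2 difference of -1.03 is just inside the threshold. With TMM the difference was -0.90 and with DESeq2 size factors -0.88, so Ctsl would not be chosen under either scaling.

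Angptl6 and Atp7b, next in size, were also above untreated WT cells. Angptl6, an angiopoietin-like secreted protein, had 5.75, 6.79 and 7.02 CPM in induced mutant cells with 5-ALA, 9.85, 9.09 and 9.76 CPM in mutant cells without it, 0.443, 0.309 and 0.409 CPM in induced WT cells, and 4.60, 5.13 and 4.22 CPM in untreated WT cells. Its exons overlap A230050P20Rik, and reads of the pair may not be separable. Atp7b, a copper-transporting ATPase, had 6.81, 6.63 and 6.26 CPM in induced mutant cells with 5-ALA, 5.76, 6.36 and 5.65 CPM in mutant cells without it, 0.384, 0.559 and 0.532 CPM in induced WT cells, and 2.21, 2.16 and 1.46 CPM in untreated WT cells. The mutant-to-WT ratio of reads with estradiol was 24.5 for Angptl6 (95% interval 17.5 to 35.4) and 12.3 for Atp7b (9.06 to 17.2). For both, every mutant library lay above every WT library of either kind.

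**Figure D3:**
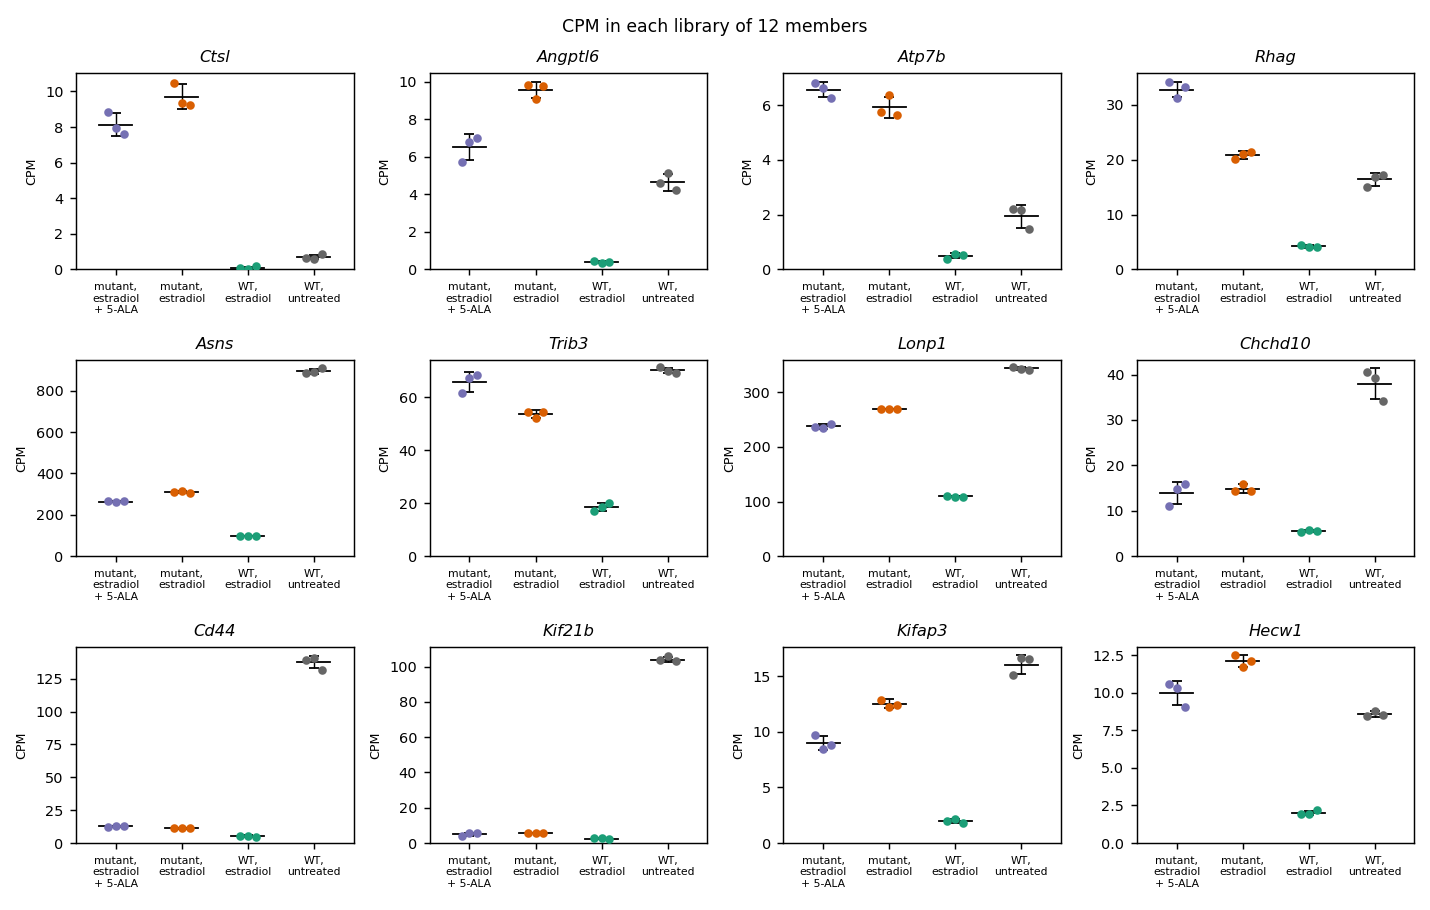
Points are single libraries (CPM on the y axis, from 0, on a scale of its own in each panel) in induced mutant cells with 5-ALA, induced mutant cells, induced WT cells and untreated WT cells, with a bar at the mean and error bars of 1 SD (n = 3). In each of the 12 panels the induced WT libraries are the lowest, and Ctsl, Angptl6, Atp7b, Rhag and Hecw1 are higher in mutant cells than in untreated WT cells.

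Transport is represented by 3 more members. Rhag, the Rh-associated glycoprotein of the red cell membrane, which conducts ammonia, had 34.1, 31.2 and 33.2 CPM in induced mutant cells with 5-ALA, 20.1, 21.1 and 21.5 CPM in mutant cells without it, 4.48, 4.14 and 3.98 CPM in induced WT cells, and 15.1, 16.8 and 17.3 CPM in untreated WT cells. It was higher with 5-ALA than without in every mutant library, by 0.64 (log2), and it exceeded untreated WT cells in both mutant groups. Steap3, the endosomal ferrireductase of the transferrin cycle, had 31.9, 32.2 and 32.6 CPM in induced mutant cells against 8.5, 7.61 and 7.85 CPM in induced WT cells, and 54.7, 59.0 and 54.1 CPM in untreated WT cells. Abcc4, an exporter of cyclic nucleotides and other anions, had 66.5, 67.6 and 67.2 CPM in induced mutant cells against 30.2, 29.9 and 30.6 CPM in induced WT cells. Steap3 and Abcc4 were below untreated WT cells, where Abcc4 had 91.5, 89.4 and 86.8 CPM.

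A group of 6 members acts in amino acid supply and its stress response, and 5 of the 6 were below untreated WT cells, as were 66 of all 82 members. Asns, asparagine synthetase, had 265, 261 and 265 CPM in induced mutant cells with 5-ALA, 308, 317 and 306 CPM in mutant cells without it, 98.8, 95.4 and 97.9 CPM in induced WT cells, and 884, 893 and 908 CPM in untreated WT cells. Asns in mutant cells thus lay between the WT groups, with log2 differences of 1.67 from induced WT cells and -1.53 from untreated WT cells. Aldh18a1, the enzyme that begins proline synthesis from glutamate, had 215, 217 and 215 CPM in induced mutant cells against 69.8, 69.9 and 72.1 CPM in induced WT cells, and 275, 275 and 276 CPM in untreated WT cells. Trib3, a pseudokinase that ATF4 and CHOP induce, had 61.6, 67.4 and 68.3 CPM in induced mutant cells with 5-ALA, 54.3, 52.0 and 54.5 CPM in mutant cells without it, 17.1, 18.4 and 19.9 CPM in induced WT cells, and 71.3, 69.8 and 69.2 CPM in untreated WT cells. Trib3 was higher with 5-ALA in every library, by 0.29 (log2), so its level came nearer to that of untreated WT cells.

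The charging enzymes Sars and Vars, the seryl- and valyl-tRNA synthetases, differed in their distance from untreated WT cells. Sars had 370, 380 and 396 CPM in induced mutant cells against 152, 144 and 147 CPM in induced WT cells, and 331, 327 and 323 CPM in untreated WT cells. Vars had 107, 107 and 112 CPM in induced mutant cells against 53.5, 53.5 and 53.8 CPM in induced WT cells, and 570, 549 and 522 CPM in untreated WT cells. The log2 difference between induced mutant cells and untreated WT cells was 0.22 for Sars and -2.32 for Vars. Mthfd2, the mitochondrial folate enzyme of one-carbon supply, resembled Vars, with 38.2, 38.8 and 39.4 CPM in induced mutant cells, 15.4, 15.1 and 16.1 CPM in induced WT cells, and 188, 187 and 192 CPM in untreated WT cells.

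The fixed pathway lists to which these members belong moved unevenly, by edgeR's test at an adjusted p under 0.05, and their counts include the members. Of 20 cytosolic tRNA synthetases tested, 18 were higher and 2 lower in the mutant, with both genotypes induced (background 35.1% and 33.6%), 1 rose and 18 fell with estradiol in WT cells (43.3% and 46.4%), and 14 rose and 2 fell with 5-ALA (21.6% and 21%). These comparisons share libraries and their counts are not independent. The rule fixed the directions of the 2 members, Sars and Vars, in the first 2 comparisons. Of the 18 synthetases outside the set, 14 were called lower with estradiol and higher in mutant cells, against 22.4% of all genes tested. The synthetases' median in the mutant comparison was 0.50 (log2), against -0.01 over all genes tested. Among synthetases outside the set, Aars (0.90), Wars (0.66) and Gars (0.62) were raised most in mutant cells. Gars fell by 2.55 with estradiol in WT cells and Wars rose there by 0.14, and Aars did not pass the test there (0.04, adjusted p = 0.136).

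Of 18 genes of the ATF4 stress response tested, 12 were higher and 5 lower in mutant cells (background 35.1% and 33.6%), with a median of 0.50. With estradiol in WT cells 7 rose and 9 fell, close to the background (43.3% and 46.4%). With 5-ALA in mutant cells 10 rose and 5 fell (21.6% and 21%). The list also holds Nupr1 and Pck2, raised in mutant cells by 3.26 and 2.91 and both among the named exclusions. Pck2 met the thresholds and was removed by name, while Nupr1 did not meet them. Slc7a11, the cystine transporter on this list, was lower in mutant cells (-2.34). Atf4 and Ddit3 are named here after their values were seen. Atf4 itself was higher in mutant cells by 1.33 and did not pass the test with estradiol in WT cells (0.06, adjusted p = 0.0795), so it did not meet the rule. Ddit3, encoding CHOP, rose with estradiol in WT cells by 1.96 and was higher in mutant cells by 0.45. Trib3, Asns, Aldh18a1 and Lonp1 are the members of this list, and the rule fixed the directions of these 4 in both contrasts. Of the 14 tested genes outside the set, 3 were called lower with estradiol and higher in mutant cells, against 22.4% of all genes tested.

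Of 16 one-carbon enzymes tested, 10 were higher and 1 lower in mutant cells (background 35.1% and 33.6%). With estradiol in WT cells 2 rose and 13 fell (43.3% and 46.4%). Mthfd2 is the member of that list. Of the 15 tested enzymes outside the set, 8 were called lower with estradiol and higher in mutant cells, against 22.4% of all genes tested. Psat1 was barred by name and Shmt2, the mitochondrial serine hydroxymethyltransferase, missed the set because its fall with 5-ALA was 20.1% of its excess. Of 24 genes of mitochondrial protein import and folding, 13 were higher and 5 lower in mutant cells (35.1% and 33.6%). In WT cells 1 rose and 23 fell with estradiol (43.3% and 46.4%). Trap1 is the member here, and 12 of the 23 genes outside the set were called lower with estradiol and higher in mutant cells (22.4%). Among those outside the set, Hspe1 (0.77), Timm44 (0.59) and Tomm20 (0.50) were raised most in mutant cells.

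Mitochondrial proteins form a group of 12 members, and all 12 were below untreated WT cells, with a median log2 difference of -1.12. Lonp1, the matrix protease, had 237, 234 and 242 CPM in induced mutant cells with 5-ALA, 269, 269 and 270 CPM in mutant cells without it, 111, 109 and 109 CPM in induced WT cells, and 347, 343 and 341 CPM in untreated WT cells. The Lonp1 values of the 4 groups did not overlap, and the log2 difference with 5-ALA was -0.18. Trap1, the mitochondrial HSP90, had 64.8, 63.4 and 63.0 CPM in induced mutant cells against 17.2, 16.9 and 17.4 CPM in induced WT cells, and 136, 136 and 132 CPM in untreated WT cells. Dnaja3, the HSP40 partner of mitochondrial HSP70, had 38.1, 37.3 and 36.4 CPM in induced mutant cells against 11.3, 10.7 and 9.51 CPM in induced WT cells, and 69.0, 71.2 and 69.5 CPM in untreated WT cells. Both genes overlap exons of neighbours, Trap1 those of Dnase1, and Dnaja3 those of Coro7 and Vasn.

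Chchd10, an intermembrane-space protein of the cristae, had 11.1, 14.9 and 15.8 CPM in induced mutant cells with 5-ALA, 14.3, 16 and 14.3 CPM in mutant cells without it, 5.35, 5.78 and 5.48 CPM in induced WT cells, and 40.6, 39.2 and 34.2 CPM in untreated WT cells. The mutant libraries with and without 5-ALA overlapped. Fatty acid oxidation is represented by Acadl, the long-chain acyl-CoA dehydrogenase, and Decr1, the dienoyl-CoA reductase. Acadl had 91.8, 93.3 and 94.1 CPM in induced mutant cells against 35.6, 37.8 and 35.5 CPM in induced WT cells, and 121, 119 and 127 CPM in untreated WT cells. Decr1 had 32.5, 32.5 and 31.3 CPM in induced mutant cells against 12.6, 12.3 and 12.1 CPM in induced WT cells, and 53.1, 55.4 and 57.7 CPM in untreated WT cells. The group also holds Me2, the mitochondrial malic enzyme, Uqcc2, an assembly factor of respiratory complex III, Cisd1, an iron-sulfur protein of the outer membrane, Prelid2, Pyurf and the RNA helicase Dhx30, with excesses between 1.05 and 1.65. Dhx30 varied widely between libraries, with 18.0, 13.8 and 22.4 CPM in induced mutant cells and 7.71, 4.86 and 11.1 CPM in induced WT cells.

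Redox and small-molecule metabolism accounts for 7 members. Glrx, glutaredoxin, had 26.2, 27.1 and 26.3 CPM in induced mutant cells with 5-ALA, 34.8, 34.1 and 32.7 CPM in mutant cells without it, 7.48, 6.77 and 7.12 CPM in induced WT cells, and 18.5, 19.2 and 19.5 CPM in untreated WT cells. Glrx was the only member of the group above untreated WT cells, by 0.81 (log2), also under TMM and size-factor scaling. Mmachc, which processes vitamin B12, stood at the other end, with 6.11, 5.88 and 5.80 CPM in induced mutant cells against 2.59, 2.38 and 2.36 CPM in induced WT cells, and 52.1, 52.0 and 53.0 CPM in untreated WT cells. Gk, glycerol kinase, Akr1c13, an aldo-keto reductase, Lancl1, a glutathione-binding protein, Fam213a, a peroxiredoxin-like protein, and Gstz1, of tyrosine breakdown, had excesses between 1.02 and 1.42 (log2).

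The secretory pathway and glycan enzymes give 9 members, with a median excess of 1.42. Krtcap2, a subunit of the oligosaccharyltransferase, had 19.0, 20 and 20.6 CPM in induced mutant cells with 5-ALA, 26.1, 25.4 and 25.3 CPM in mutant cells without it, 4.91, 4.91 and 4.86 CPM in induced WT cells, and 56.0, 55.2 and 58.6 CPM in untreated WT cells. Its exons overlap Trim46. Rcn1, a calcium-binding protein of the endoplasmic reticulum, had 19.9, 21.7 and 23.2 CPM in induced mutant cells against 4.61, 4.75 and 4.95 CPM in induced WT cells, and 27.3, 27.0 and 26.1 CPM in untreated WT cells. Asph, the aspartate beta-hydroxylase, was far below untreated WT cells in both estradiol-treated genotypes, with 34.3, 32.5 and 31.8 CPM in induced mutant cells against 12.1, 12.5 and 12.9 CPM in induced WT cells, and 271, 275 and 269 CPM in untreated WT cells. St3gal6, a sialyltransferase, Mgat4a, an N-glycan branching enzyme, Hs6st1, a heparan sulfate sulfotransferase, Alg1, an early mannosyltransferase, Tmed1 and Reep6 had excesses between 1.09 and 1.95. Mutant cells were close to untreated WT cells for St3gal6 (-0.12) and Alg1 (-0.02), and these signs turned positive under TMM and size-factor scaling.

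Immune, surface and protease genes form the most varied group, with 12 members whose log2 differences from untreated WT cells ran between -3.54 and 3.10. Cd44, the hyaluronan receptor of many progenitors, had 12.5, 12.9 and 12.7 CPM in induced mutant cells with 5-ALA, 11.8, 11.1 and 11.2 CPM in mutant cells without it, 5.47, 5.66 and 4.54 CPM in induced WT cells, and 139, 141 and 132 CPM in untreated WT cells. Dock2, an activator of the GTPase RAC in blood cells, had 23.7, 20.4 and 23.2 CPM in induced mutant cells with 5-ALA, 13.0, 13.8 and 13.1 CPM in mutant cells without it, 5.02, 5.41 and 4.87 CPM in induced WT cells, and 85.2, 86.2 and 85.4 CPM in untreated WT cells. Both were far below untreated WT cells in every estradiol-treated group, and Dock2 had the largest positive difference of any member with 5-ALA, 0.73 (log2). Treml2, a receptor of the TREM family, had 36.6, 38.2 and 37.6 CPM in induced mutant cells with 5-ALA, 34.1, 32.5 and 34.2 CPM in mutant cells without it, 10.9, 14.1 and 12.9 CPM in induced WT cells, and 86.2, 86.6 and 85.6 CPM in untreated WT cells.

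Egfl7, a secreted EGF-domain protein, had 32.1, 34.5 and 34.3 CPM in induced mutant cells with 5-ALA, 30.7, 31.7 and 30.2 CPM in mutant cells without it, 8.19, 6.96 and 7.2 CPM in induced WT cells, and 26, 24.0 and 24.7 CPM in untreated WT cells. It overlaps exons of Agpat2 and Gm20532. Bst2, tetherin, an interferon-induced membrane protein, had 13.3, 11.9 and 12.4 CPM in induced mutant cells against 3.90, 4.57 and 4.42 CPM in induced WT cells, and 9.23, 9.15 and 9.84 CPM in untreated WT cells. Egfl7, Bst2 and the protease Ctso were above untreated WT cells, while Psmb10, an immunoproteasome subunit, was below them, with a log2 difference of -2.35. The antigen-trimming aminopeptidase Erap1 and the NKG2D ligand H60b lay close to untreated WT cells (-0.21 and -0.10), and the sign for H60b turned positive under TMM and size-factor scaling.

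Among cilium and microtubule genes, Kifap3, the kinesin-2 accessory subunit, had 9.72, 8.43 and 8.82 CPM in induced mutant cells with 5-ALA, 12.9, 12.2 and 12.4 CPM in mutant cells without it, 1.98, 2.18 and 1.8 CPM in induced WT cells, and 15.1, 16.6 and 16.5 CPM in untreated WT cells. Kif21b, a kinesin of neurons and blood cells, had 5.90, 5.56 and 5.62 CPM in induced mutant cells against 2.60, 2.58 and 2.37 CPM in induced WT cells, and 104, 106 and 103 CPM in untreated WT cells. Kifap3 was thus close to untreated WT cells (-0.35) and Kif21b was the member farthest below them (-4.08). Ift172 and Cluap1, of intraflagellar transport, and Enkd1, a microtubule-binding protein of the centriole, had excesses of 1.42, 1.33 and 1.55.

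Vesicle traffic and ubiquitin ligases give 7 members. Hecw1, a HECT-type ubiquitin ligase, had 12.5, 11.7 and 12.1 CPM in induced mutant cells against 1.94, 1.96 and 2.17 CPM in induced WT cells, and 8.46, 8.77 and 8.52 CPM in untreated WT cells. Hecw1 was above untreated WT cells in every mutant library. Arl15, Pacsin2, Rabggta, Tbc1d1 and Fbxo10 had excesses between 1.03 and 1.31.

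Of 5 nuclear proteins, Nup210, a membrane nucleoporin, had 23.3, 23.1 and 24.1 CPM in induced mutant cells against 6.86, 6.31 and 6.87 CPM in induced WT cells, and 181, 183 and 176 CPM in untreated WT cells. Zbtb18, a zinc-finger repressor, had 90.6, 84.2 and 85.2 CPM in induced mutant cells against 26.3, 26.7 and 24.0 CPM in induced WT cells, and 61.7, 63.3 and 62.8 CPM in untreated WT cells. Nup210 was below untreated WT cells (-2.91) and Zbtb18 above them (0.47). Smarcb1, a core subunit of the SWI/SNF remodeller, Mrtfb and Prpf40b had excesses of 1.21, 1.19 and 1.04.

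A further 15 members share no role. Tmcc3 had 11.2, 13.2 and 11.9 CPM in induced mutant cells against 2.04, 2.11 and 2.38 CPM in induced WT cells, and Tmem29 was 0.50 (log2) above untreated WT cells. Rpsa-ps10, the member with the most reads, is a processed pseudogene of the ribosomal protein gene Rpsa, and reads of the parent cannot be told apart from its own. Rpsa-ps10 had 1188, 1258 and 1242 CPM in induced mutant cells against 596, 595 and 603 CPM in induced WT cells. Rpsa itself averaged 1037 ± 14.9 CPM in induced mutant cells and 530 ± 9.81 CPM in induced WT cells, against 1377 ± 13.8 CPM in untreated WT cells (SD, n = 3 each). The exons of 18 members overlap those of another gene, so part of their reads may belong to the neighbour.

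**Figure D4:**
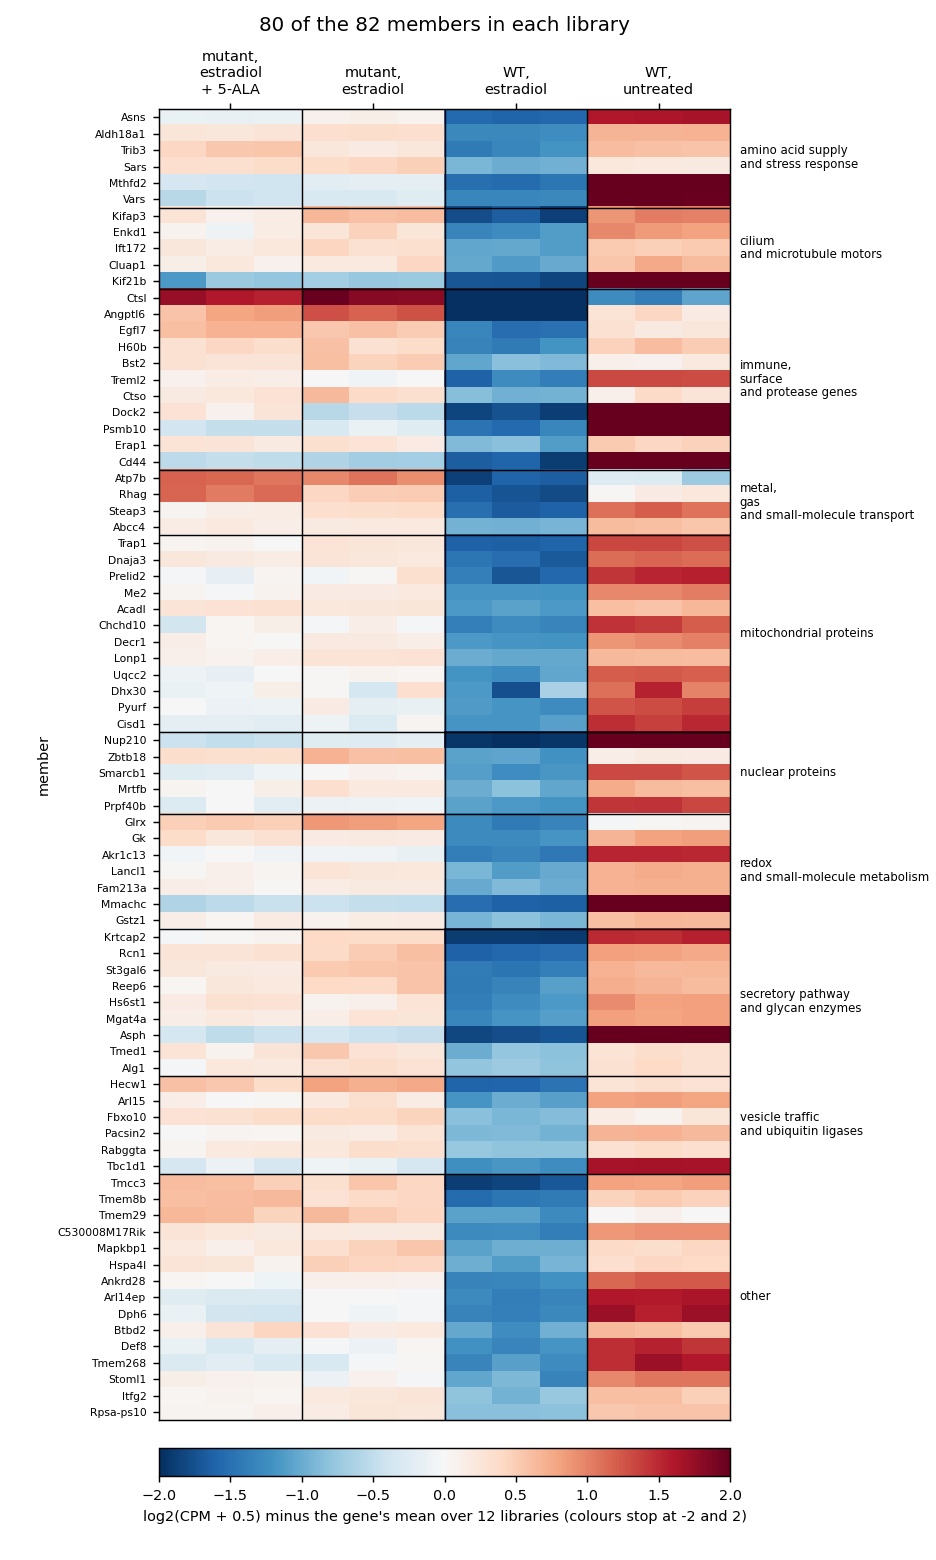
Rows are 80 of the 82 members, grouped by role, and columns the 12 libraries, with induced mutant cells with 5-ALA at the left, then induced mutant cells, induced WT cells and untreated WT cells. Colour is log2(CPM + 0.5) minus the gene's mean over the libraries and stops at -2 and 2, and the induced WT columns are the lowest in every row.

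With 5-ALA the members differed little, and the choice of members limits the size of a fall. Their median difference was -0.15 (log2), with -0.08 over all genes tested. The mean with 5-ALA was lower for 65 members and higher for 17 on library totals, but lower for 48 and higher for 34 under TMM or size-factor scaling, so the direction of small changes depends on the scaling. The 5-ALA libraries lay above the other mutant libraries for 9 members, below them for 43, and overlapped them for 30. Of all genes tested, 14.3% lay above and 40.5% below on the same CPM scale. The largest positive differences were those of Dock2 (0.73), Rhag (0.64), Trib3 (0.29), Tmem8b (0.26), Treml2 (0.15) and Cd44 (0.15), and all 6 stayed positive under TMM and size factors. The mutant libraries with 5-ALA lay above all induced WT libraries for each of the 82 members, with a median difference of 1.25, which follows from the rule. Of all genes tested, 39.3% lay above and 26.9% below.

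The values nearest the thresholds show how close the border is. For level, Mrtfb (5.05 CPM), H60b (5.10) and Stoml1 (5.31) were inside and Myo5a (4.98), St6galnac3 (4.85) and Ifi47 (4.75) outside. For the fall in WT cells, Fbxo10 (-1.03), Ctsl (-1.03) and Bst2 (-1.05) were inside and Cmc2 (-0.94), Ints6l (-0.93) and Pccb (-0.93) outside. For the excess, Vars (1.02), Gstz1 (1.02) and Tbc1d1 (1.03) were inside and Pih1d1 (0.99), Fntb (0.99) and Mrpl23 (0.98) outside. For the share of the excess lost with 5-ALA, Dph6 (19.96%) and Arl14ep (19.9%) were inside, and Shmt2 (20.1%), Tedc1 (20.4%) and Mtm1 (20.5%) outside. Of the 82 members, 27 would be chosen neither with TMM nor with size factors, among them Ctsl, Sars, Bst2 and Fbxo10, whose falls in WT cells were then above -1, and Cd44 and Kif21b, whose excess was 0.91 each with TMM and 0.89 each with size factors.

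The length of the transcripts that carried the reads was not used to choose members. It was tested with limma for 56 members whose length could vary. Between WT cells with and without estradiol, 2 of the 56 passed an adjusted p of 0.05 with a change of at least 1.2-fold, against 6.29% of 8266 genes. C530008M17Rik had a mean transcript length of 4559, 5487 and 4379 bases in induced WT cells against 3793, 3583 and 3457 bases in untreated WT cells, a log2 difference of 0.41 (limma, adjusted p = 0.00617). Zbtb18 had 2906, 3239 and 3736 bases in induced WT cells against 2638, 2777 and 2757 bases in untreated WT cells, a log2 difference of 0.27 (limma, adjusted p just under the threshold of 0.05). Leaving out a library in turn gave adjusted p-values of 0.00994 to 0.139 for Zbtb18, and of 0.00366 to 0.0253 for C530008M17Rik. Zbtb18 lost its call in 11 of these 12 fits and kept it without WT estradiol replicate 1. Between induced mutant and WT cells none of the 56 passed limma's test, against 1.05% of 8266 genes, and 9 of the 56 had an unadjusted p under 0.05, against 16.4% of all genes tested.

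Along the genome the members were spread over 19 chromosomes, with none on chromosome 7, which holds 939 tested genes, and 1 on chromosome 11, which holds 996. Chromosome 16 held 6 members (7.32%) and 3.25% of tested genes. Cluap1, Trap1, Dnaja3 and Alg1 lie at its start among genes that were raised in mutant cells as a block. For 37 tested genes, ordered from Zfp263 to Abat and with starts between positions 3744093 and 8513429 of chromosome 16 (GRCm38, the mm10 build), the median of the 12 genes on each side was 0.5 (log2) or more, and 36 of these 37 were higher in mutant than in WT cells, both induced, with a median of 1.09. The block was drawn from these same differences, so the count and median describe it and are not a test. Its last genes, Mettl22 (0.30) and Abat (-0.38), start at positions 8470788 and 8513429, after Eef2kmt (1.08) at 5244152. They are in the block through the neighbours before them. The block kept a median of 0.94 above WT cells in mutant cells with 5-ALA. A neighbour median of 0.5 or more was found around 5 members, the 4 named and Psmb10 on chromosome 8, and around 1.04% of 12038 tested genes. Without the 4 members in the block, 78 remain, with an unchanged median excess of 1.35. St3gal6 and Mrtfb, also on chromosome 16, lie outside the block. How far the block accounts for the levels of the 4 members was not tested.

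**Figure D5:**
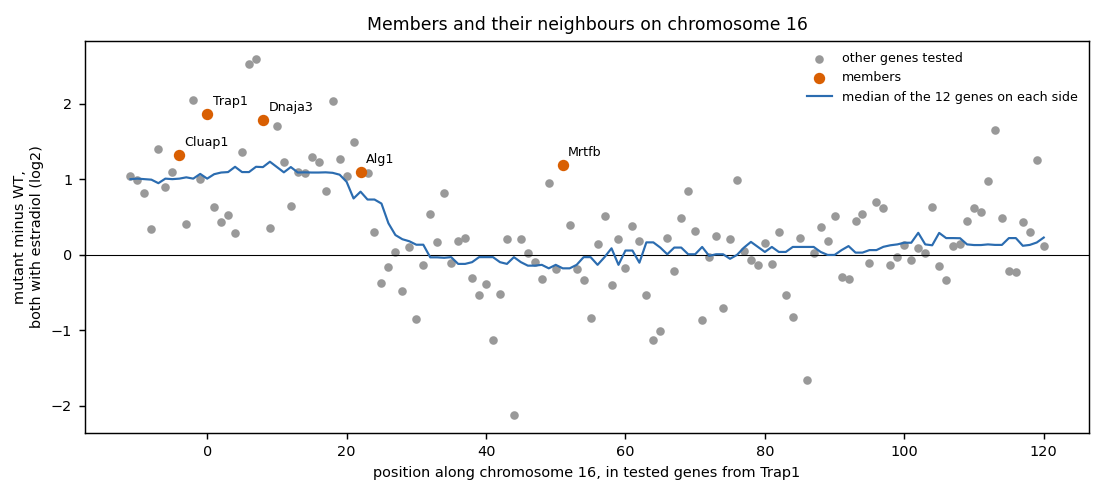
The x axis counts tested genes along chromosome 16 from Trap1, the y axis gives mutant minus WT cells, both induced (log2 of mean CPM plus 0.5), orange points are members and grey points other genes, and the blue line is the median of the 12 genes on each side. The line lies near 1 from the left edge past Dnaja3, is at 0.83 at Alg1, the last of the 4 members in the block, is 0.68 at Abat, and goes on falling to near 0.

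The lists with no member differed in mutant cells. The list of cytosolic ribosomal proteins was drawn by name and also takes in kinase genes such as Rps6ka6. Of its 88 tested genes, which the rule left out, 79 fell with estradiol in WT cells and 63 fell with 5-ALA. In mutant cells 75 of the 88 were higher and 8 lower than in WT cells. Of 77 mitochondrial ribosomal protein genes, 73 fell with estradiol in WT cells, and 49 were higher and 5 lower in mutant cells. With 5-ALA, 7 of them rose and 17 fell, the latter close to the background of 21%. Of 28 translation factor genes, 24 fell, and 16 were higher and 8 lower in mutant cells. Of 19 glycolysis genes, 12 fell, and 14 were higher and 5 lower in mutant cells. Other lists of growth and division fell in WT cells and moved both ways in mutant cells. All 38 ribosome biogenesis genes fell with estradiol in WT cells (background 46.4%), and 6 were higher and 22 lower in mutant than in WT cells (35.1% and 33.6%). With 5-ALA, 27 of the 38 rose and 1 fell (21.6% and 21%). All 37 DNA replication genes fell, with 19 higher and 14 lower in mutant cells, and all 25 mitosis genes fell, with 9 higher and 10 lower. All 16 genes of purine and pyrimidine synthesis fell, with 4 higher and 6 lower. Of 16 progenitor genes repressed by GATA-1, 11 fell and 5 rose, and 4 were higher and 9 lower in mutant cells. Of 22 sterol genes, 20 were higher and 1 lower in mutant cells and 21 fell with 5-ALA. Amino acid transporters moved both ways: of 16 tested, 9 rose and 7 fell with estradiol in WT cells. In mutant cells 6 of them were higher and 7 lower, with a median of -0.07 (log2). With 5-ALA, 7 of the 16 rose and 2 fell (21.6% and 21%).

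Markers of other cell types were counted beside these results. The summed level of 14 erythroid markers was 66138 to 70236 CPM in induced mutant cells with 5-ALA, 26665 to 28070 CPM in mutant cells without it, 74735 to 75306 CPM in induced WT cells, and 1751 to 1799 CPM in untreated WT cells. The sum of 10 mast cell and basophil markers was 2.15 to 2.64 CPM in induced mutant cells, 6.45 to 7.90 CPM in induced WT cells and 322 to 337 CPM in untreated WT cells, with Fcer1a, Mcpt8 and Tpsb2 at 0 in every library. The sum of 12 granulocyte and macrophage markers was 8.18 to 8.97 CPM in induced mutant cells, 16.7 to 18.4 CPM in induced WT cells and 79.0 to 82.3 CPM in untreated WT cells. Cebpa was at 0, and Cebpe, Csf1r, Csf3r, Ctsg, Elane, Itgam, Lyz2, Mpo and Prtn3 were under 1 CPM in every library. The sum of 11 megakaryocyte markers was 514 to 528 CPM in induced mutant cells, 1781 to 1810 CPM in induced WT cells and 235 to 242 CPM in untreated WT cells, with Gp1bb at 0. Lymphocyte and fibroblast markers summed to at most 2.56 CPM and at most 15.0 CPM in every library. Without 5-ALA, the summed mast cell, granulocyte and megakaryocyte markers were thus lower in mutant than in WT cells, both induced. With 5-ALA, the granulocyte and macrophage sum in mutant cells was 21.7 to 22.8 CPM, above induced WT cells. The mast cell and megakaryocyte sums with 5-ALA were 2.71 to 3.13 CPM and 767 to 778 CPM, below induced WT cells. The part of these markers in the fall with estradiol of surface genes such as Cd44, Dock2 and Treml2 was not tested.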

How the data were processed

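RNA-seq libraries (TruSeq, total RNA) of 4 groups, 3 each, were analysed from 1 table per library. Per the file headers, the deposited tables hold RSEM expected counts, TPM, FPKM and abundance-weighted transcript lengths per gene. The authors' notes name Bowtie 1.1.1, RSEM 1.2.20, CASAVA 1.8.2 and mm10. Whether counting used strand is not given in the sources used here. The deposited FPKM was not used and the deposited TPM was an alternative only. Expected counts divided by the library total gave CPM. The 12115 genes that passed edgeR's filterByExpr were tested on counts rounded to whole numbers with edgeR 4.0.16 (TMM, quasi-likelihood, 4 group means over 12 libraries, Benjamini-Hochberg adjustment), with DESeq2 1.42.0 as an alternative. Transcript lengths, on log2, were tested with limma 3.58.1, R 4.3.3. Both tests were tested on simulated data with known changes. Gene names were matched for 24746 of 25097 identifiers, and positions and exon overlaps came from a GRCm38 annotation. The members, the gene lists and the role groups were chosen with earlier results of these data known. Named genes are, among members, the 12 with the largest excess, the 6 with the deepest fall in WT cells, the most reads, the highest and lowest difference from untreated WT cells and the largest rise with 5-ALA, those nearest the thresholds, those on a fixed list and those with a called length, and, outside the set, up to 3 genes per list with the largest change in mutant cells. For 2 members the values are not reported here. Other members were named after their values were seen. Libraries of a group correlated at 0.997 to 0.998 (log2 CPM, Pearson). The 95% intervals of read ratios cover counting error only and take no account of the choice of members by the same contrasts.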

Additional observations from a re-analysis of the deposited data

How the results depend on the processing

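The number of members was 82 and depended on scaling at the borders. It was 71 with TMM (55 of the 82 shared), 66 with DESeq2 size factors (52 shared), 52 with TPM (41 shared), 68 with a pseudocount of 1, 91 with 0.1, 60 with a minimum of 10 CPM and 78 without the chromosome 16 block, an alternative chosen after seeing the data. Leaving out a library gave 78 to 86, 52 members were chosen under all 3 scalings of the counts, and 32 under these and TPM. With TPM, Asns, Lonp1, Mthfd2 and Vars were not chosen, while Aldh18a1, Trib3 and Sars were. Vars and Sars were also not chosen with TMM or size factors. The median difference of the members with estradiol in WT cells was -1.79 with TMM, -1.75 with size factors, -2.02 with TPM and -2.0 with a pseudocount of 1, and -2.10 to -2.07 without a library. Between mutant and WT cells it was 1.21, 1.18, 1.37 and 1.32 under the same settings, and 1.34 to 1.36 without a library. With 5-ALA it was -0.045 with TMM, -0.051 with size factors and -0.24 with TPM, and -0.16 to -0.13 without a library. Between mutant cells with estradiol and untreated WT cells it was -0.36, -0.35, -0.42 and -0.53, and -0.57 to -0.52 without a library. None of these medians reversed. For the difference between mutant and WT cells with estradiol, none of 410 values of named members reversed and 96 moved by more than the spread between libraries. For single members the sign turned with TMM or size factors for 6 of 82 against untreated WT cells, and for 17 of 82 with 5-ALA. The changed transcript lengths with estradiol in WT cells numbered 342 at a mean of at least 10 CPM, where fewer genes are tested. The same-numbered libraries did not deviate together (r between -0.104 and 0.0669), so the numbers do not pair them. With a replicate block, 10832, 8245 and 5032 genes were called in the 3 comparisons, against 10864, 8334 and 5163. Low counts limit Ctsl and Atp7b in WT cells and Angptl6 in induced WT cells, with 7, 44 and 35 reads in the induced WT libraries. The excess of Atp7b was 2.70 (log2) on library totals and 1.73 with TPM, under which it was not chosen.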
